A study of Homo sapiens with 40 samples.

Results

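The RNA levels of 42 cell cycle genes were followed in cultured human bronchial epithelial cells: 15 genes of DNA replication (MCM2 to MCM7, CDC6, CDT1, E2F1, CCNE1, CCNE2, RRM1, RRM2, TYMS and PCNA) and 27 genes of mitosis. The genes were chosen by name, from knowledge of the cell cycle, but with earlier results of these data known. Each was found as 1 row of the deposited table by the symbol of its Ensembl identifier. All 42 were among the 62263 rows of the table and all 42 were among the 16735 genes with enough counts to be tested. The question was whether the growth state of 2 cell lines, as these genes show it, differed with a hairpin RNA or with IL-13, and how the same mRNAs were represented on polysomes.

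The cells were BEAS-2B, a bronchial epithelial line immortalised in culture. Each carried a stable short hairpin RNA, shControl in the control line or shIGF2BP3, aimed at the RNA-binding protein IGF2BP3, in the knockdown line (the sample names write siC and siIGF2BP3). All cells were starved overnight in 2% medium and then received IL-13, a type 2 cytokine, at 100 ng/ml or were left unstimulated, with harvest for Frac-seq (sequencing of total and of polyribosome-bound mRNA from the same cells) 24 h later. Fraction (input or polysome), treatment and line gave 8 groups of 5 libraries, 40 in all. There was 1 line per hairpin, so a difference between the lines and an effect of losing IGF2BP3 cannot be told apart.

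Cells copy their DNA and divide in an ordered cycle. In G1 the MCM helicase is loaded on replication origins by CDC6 and CDT1, and E2F transcription factors switch on the replication genes; in G2 the MuvB, B-MYB and FOXM1 proteins switch on the mitosis genes, whose products build the spindle and part the chromosomes. Bronchial epithelium divides slowly in the body, whereas immortalised lines cycle quickly. The summed level of these mRNAs is widely read as a measure of proliferation.

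The promoters of the genes show this split, and 6 are printed because the co-movement of the mitosis genes described further on is compared with them. RefSeq promoter windows (GRCh38.p14, 250 bases before to 50 bases after a transcription start) were matched by symbol for 34 of the 42 genes; AURKA, BIRC5, CCNE2, MCM4, MCM5, TPX2, TTK and UBE2C had none in the table. Capitals mark the motifs searched on both strands: the cell cycle genes homology region (CHR, TTTGAA or TTCGAA), the CCAAT box (CCAAT), and an E2F site (TTTGGCGC, TTTCCCGC, TTTGCCGC or TTTCGCGC). No marked match overlapped another. The first 4 windows belong to mitosis genes and hold a CHR and a CCAAT box, and the last 2 belong to replication genes and hold an E2F site and a CCAAT box; they were chosen after the values were seen. BUB1 lies at chr2:110678014-110678313 (minus strand), MAD2L1 at chr4:120066799-120067098 (minus strand), CCNB2 at chr15:59104896-59105195 (plus strand), PLK1 at chr16:23678639-23678938 (plus strand), MCM3 at chr6:52284693-52284992 (minus strand) and PCNA, which has a second window not shown, at chr20:5126573-5126872 (minus strand). Each is written 5′ to 3′ in the direction of its gene.
BUB1: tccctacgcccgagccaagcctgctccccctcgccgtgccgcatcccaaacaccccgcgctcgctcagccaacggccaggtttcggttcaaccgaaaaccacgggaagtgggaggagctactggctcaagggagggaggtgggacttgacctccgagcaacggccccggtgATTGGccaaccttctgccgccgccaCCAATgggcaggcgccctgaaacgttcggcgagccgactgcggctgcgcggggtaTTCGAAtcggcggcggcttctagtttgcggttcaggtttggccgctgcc
MAD2L1: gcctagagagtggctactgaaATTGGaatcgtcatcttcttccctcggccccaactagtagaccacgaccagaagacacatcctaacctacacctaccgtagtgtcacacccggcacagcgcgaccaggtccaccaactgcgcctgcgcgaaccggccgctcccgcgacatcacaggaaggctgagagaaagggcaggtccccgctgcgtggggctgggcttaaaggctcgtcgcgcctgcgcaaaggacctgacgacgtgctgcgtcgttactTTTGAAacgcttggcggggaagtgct
CCNB2: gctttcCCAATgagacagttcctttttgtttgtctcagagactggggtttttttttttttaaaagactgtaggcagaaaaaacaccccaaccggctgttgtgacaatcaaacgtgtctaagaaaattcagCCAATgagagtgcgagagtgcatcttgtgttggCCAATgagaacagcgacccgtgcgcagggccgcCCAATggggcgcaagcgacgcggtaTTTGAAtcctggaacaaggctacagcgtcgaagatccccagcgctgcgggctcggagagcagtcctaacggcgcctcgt
PLK1: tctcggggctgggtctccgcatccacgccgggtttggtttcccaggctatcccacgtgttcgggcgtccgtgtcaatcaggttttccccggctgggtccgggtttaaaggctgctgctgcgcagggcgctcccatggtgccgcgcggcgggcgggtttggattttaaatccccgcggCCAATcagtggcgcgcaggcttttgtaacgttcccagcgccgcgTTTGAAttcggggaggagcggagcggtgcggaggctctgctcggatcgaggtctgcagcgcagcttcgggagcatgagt
MCM3: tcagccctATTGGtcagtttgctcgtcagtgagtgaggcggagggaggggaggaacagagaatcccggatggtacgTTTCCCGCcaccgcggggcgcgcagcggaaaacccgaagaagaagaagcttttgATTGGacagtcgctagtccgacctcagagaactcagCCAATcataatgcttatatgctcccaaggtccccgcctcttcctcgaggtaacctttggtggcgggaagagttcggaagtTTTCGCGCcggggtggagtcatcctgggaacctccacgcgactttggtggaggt
PCNA: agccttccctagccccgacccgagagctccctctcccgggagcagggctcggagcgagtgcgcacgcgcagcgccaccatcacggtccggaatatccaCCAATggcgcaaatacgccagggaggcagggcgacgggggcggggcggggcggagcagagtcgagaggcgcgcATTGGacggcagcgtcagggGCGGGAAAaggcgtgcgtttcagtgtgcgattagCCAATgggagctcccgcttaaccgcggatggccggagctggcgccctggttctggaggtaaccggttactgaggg

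A CHR was present in 16 of the 22 mitosis genes with a window (72.7%), in 2 of the 12 replication genes (16.7%) and in 19.5% of all 27305 genes with a window. The CCAAT box, bound by NF-Y, was present in 19 of 22 mitosis genes (86.4%), in 8 of 12 replication genes (66.7%) and in 39.7% of all genes. Both motifs stood in 1 window in 15 of the 22 mitosis genes (68.2%), against 7.85% of all genes. The E2F site showed the reverse, with 9 of 12 replication genes (75%; CDC6, CDT1, E2F1, MCM2, MCM3, MCM6, MCM7, PCNA and TYMS), 3 of 22 mitosis genes (13.6%; CDK1, CENPA and NUSAP1) and 3.99% of all genes. In CCNB2 and PLK1 the CHR began 29 bases before the start and in BUB1 1 base after it. These are matches of letters, not measured sites.

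All 42 genes had a mean above 1 TPM in input RNA (TPM is transcripts per 1000000, a level per length). The most abundant was UBE2C, the ubiquitin-conjugating enzyme of the anaphase-promoting complex, at 787 ± 106 TPM (SD, n = 20), followed by PCNA, the sliding clamp of replication, at 594 ± 88.5 TPM. Next in level were CDC20, the activator of that complex, at 348 ± 66.1 TPM, and MCM7 at 299 ± 33.0 TPM. PLK1, a kinase of mitotic entry, measured 286 ± 54.3 TPM and TYMS, which makes thymidylate, 251 ± 29.3 TPM. At the low end were MAD2L1, a spindle checkpoint protein, at 6.86 ± 1.06 TPM and CENPE, a kinetochore motor, at 2.21 ± 0.543 TPM. MKI67, the source of the Ki-67 antigen by which cycling cells are counted, measured 25.0 ± 6.85 TPM. The 27 mitosis genes summed to between 2563 and 4447 TPM per input library, and the 15 replication genes to between 1616 and 2493 TPM. Both sets of mRNAs were present in every input library of both lines, with and without IL-13.

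Total estimated counts ran from 14044352 to 40441061 per input library and from 1816848 to 34082191 per polysome library, and 3 polysome libraries of the knockdown line held under 5000000 counts (unstimulated replicates 1 and 5, IL-13 replicate 5). Libraries of 1 group varied less in input than in polysome RNA (biological coefficients of variation 0.332 and 0.481). Keratins of simple epithelium were high in input (KRT8 945 TPM, KRT18 648 TPM, KRT7 129 TPM), with KRT19 at 39.4 TPM. The epithelial markers EPCAM (0.363 TPM), CDH1 (0.258 TPM), KRT5 (0.113 TPM) and TP63 (0.0220 TPM) were near 0. The fibroblast or mesenchymal markers were split. VIM (1261 TPM), COL1A1 (113 TPM) and COL1A2 (5.35 TPM) were present, whereas DCN (0.0123 TPM), LUM (0.00391 TPM) and PDGFRA (0.00547 TPM) were near 0. Of the leukocyte markers, PTPRC was at 0 in all 20 input libraries and CD3E (0.00451 TPM) and LYZ (0.244 TPM) were near 0. CD68 was present at a mean of 8.35 TPM (3.89 to 12.5 TPM). Of 3 endothelial markers only CDH5 had enough counts to be tested (mean 1.27 TPM), and it was higher in the knockdown line by 3.29 ± 0.479 (SE, log2, edgeR adjusted p = 2.22e-04); its part in the results was not tested. IGF2BP3 measured 20.7, 44.4, 48.8, 30.7 and 31.3 CPM in unstimulated control input and 22.0, 25.5, 25.9, 21.8 and 29.1 CPM in unstimulated knockdown input (CPM, counts per 1000000, takes the TMM-scaled library size as its base). These unstimulated ranges overlapped only through control library 1, at 20.7 CPM. With IL-13 the values were 32.3, 43.3, 42.0, 29.6 and 29.8 CPM in control and 17.7, 26.8, 35.1, 23.8 and 25.8 CPM in knockdown input, and the ranges overlapped. Averaged over treatments IGF2BP3 was lower in the knockdown line by 0.48 ± 0.259 (SE) on the log2 scale, with an edgeR adjusted p of 0.957. It was not called, so that directions between the lines rest on the labels.

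One library stood apart in these genes. In unstimulated control replicate 1, all 27 mitosis genes lay below the mean of their group in input RNA, by a mean of -0.47 on the log2 scale. In the same library E2F1 was the highest of all input libraries and MCM2 the lowest. MYC measured 258 CPM against 39.5 to 71.2 CPM in the other 19, and CCND1, a D cyclin of G1, 56.4 CPM against 3.81 to 46.4 CPM. The polysome library of the same group and number also stood apart: MYC measured 220.0 CPM there (others 17.9 to 56.7 CPM), CCND1 101 CPM (others 5.20 to 64.5 CPM), and CCNE2, MCM7, RRM2, CDC6, CDT1 and CDC25C had their highest polysome values. The mitosis genes UBE2C, BIRC5, CCNB1, KIF20A and CENPF had their lowest polysome values in it. Of all 27 mitosis genes 20 lay below and 7 above their group mean there. Their mean deviation was -0.35, and unstimulated control polysome library 4 was lower (-0.58). Without unstimulated control input library 1, no difference between the lines or with IL-13 in input was called among the 42 genes, but small values moved. Averaged over treatments, the sign of the difference between the lines turned in 7 of the 42 genes and the median went from 0.0038 to -0.044. In unstimulated cells alone it turned in 11, with a median of 0.041 before and -0.025 after. For IL-13 averaged over lines the sign turned in 11, with medians of 0.060 and 0.036, and in the control line in 13. IL-13 control input library 1, also low in the mitosis genes (-0.36), was kept in these fits.

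Between the lines, no difference in a cell cycle gene passed the test in input RNA. Calls were made in edgeR where the p adjusted over all 16735 genes was under 0.05. In unstimulated input 0 of the 42 genes were called (0.012% of all genes were), with IL-13 0 of 42 (0% of all genes), and for the mean of both treatments 0 of 42 (0.406% of all genes). None of the 42 had an unadjusted p under 0.05 in any of these 3 comparisons, where 2.97%, 3% and 5.87% of all genes did, and the DESeq2 Wald test also called none. The median of the 42 log2 differences for the mean of both treatments was 0.0038, against -0.014 for all genes tested, with values from -0.39 (RRM2) to 0.31 (CENPE). The precision of this fit, which took both fractions together, was limited. The median SE was 0.165, and in 38 of the 42 genes the 95% interval lay within a 2-fold change in either direction. In a bulk sample a change in the share of dividing cells and a change in RNA per dividing cell cannot be told apart.

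**Figure D1:**
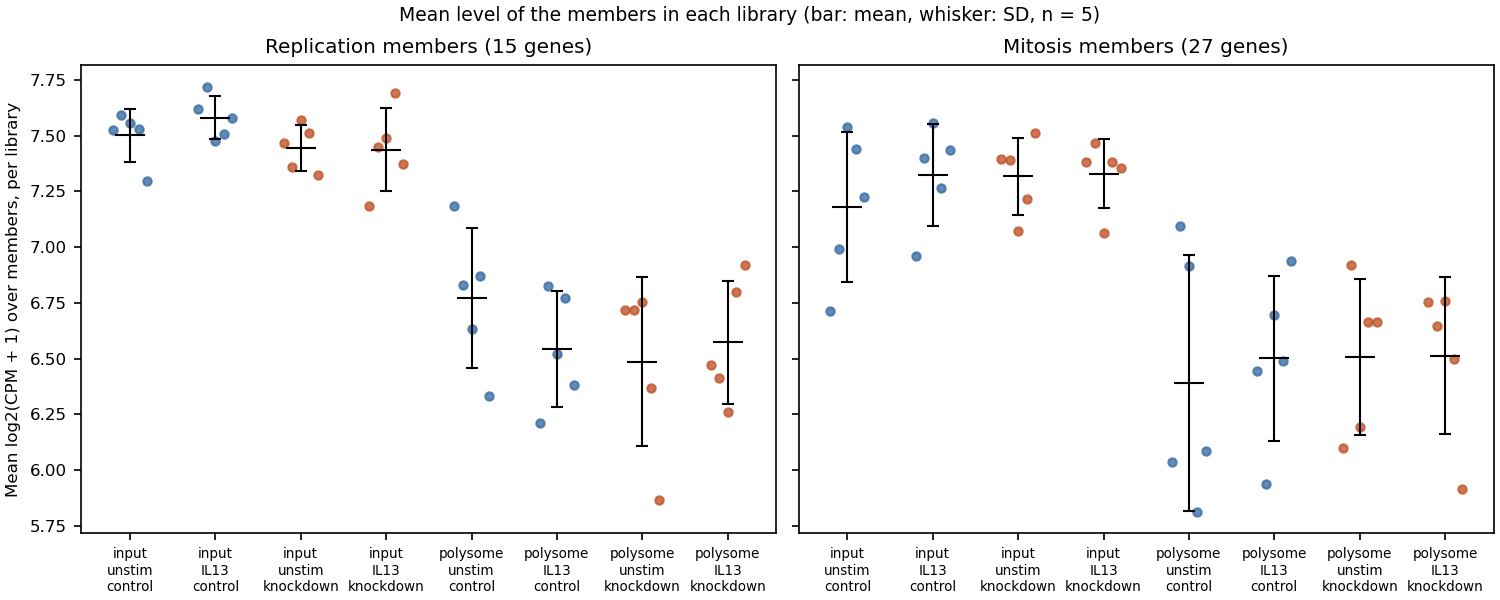
Mean log2(CPM + 1) over the 15 replication genes (left) and the 27 mitosis genes (right) in each of the 40 libraries (y axis), by group (x axis), with the mean (bar) and SD (whisker) of 5 libraries, blue for the control and orange for the knockdown line. Input groups lie between 7.18 and 7.58 in their means, and all 8 polysome group means lie lower, between 6.39 and 6.77.

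The mean level of the mitosis genes, as log2(CPM + 1), was 7.18 ± 0.336 (SD, n = 5) in unstimulated control input and 7.32 ± 0.173 in unstimulated knockdown input. With IL-13 it was 7.32 ± 0.229 in the control and 7.33 ± 0.154 in the knockdown line. The unstimulated control group had the widest spread, and without its replicate 1 its mean was 7.30. For the replication genes the 4 input means were 7.50 ± 0.117 (unstimulated control), 7.58 ± 0.0963 (IL-13 control), 7.45 ± 0.104 (unstimulated knockdown) and 7.44 ± 0.184 (IL-13 knockdown). In both sets the 4 groups overlapped.

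Among the mitosis genes, KIF20A, a kinesin of the central spindle, had the smallest p of the 42 between the lines in input. It measured 192, 351, 569, 509 and 477 CPM in unstimulated control libraries 1 to 5 and 514, 580.0, 403, 470.3 and 581 CPM in unstimulated knockdown libraries. Under IL-13 the values were 338, 487, 397, 492 and 486 CPM in control and 508, 639.9, 397, 516 and 558 CPM in knockdown libraries. The groups overlapped, and the low value was control replicate 1. The log2 difference for both treatments was 0.27 ± 0.160 (SE; 95% interval -0.057 to 0.59; unadjusted p = 0.104 in edgeR), and 0.17 without unstimulated control replicate 1.

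MKI67 and TOP2A, both widely used as labels of dividing cells, overlapped between the lines. MKI67 in input measured 187, 318, 321, 222 and 187 CPM in unstimulated control and 298, 219.9, 253, 301 and 296 CPM in unstimulated knockdown libraries. After IL-13 the levels were 291, 329, 190.3, 198 and 169.7 CPM and 223, 233, 299, 326 and 211 CPM. High and low libraries occurred in every group, and the log2 difference between the lines was 0.14 ± 0.281 (SE; 95% interval -0.43 to 0.71). TOP2A, the topoisomerase that untangles sister chromatids, measured 220.4, 316, 604, 377 and 259 CPM in unstimulated control and 395, 322, 333, 283 and 444 CPM in unstimulated knockdown libraries. With IL-13 the values were 297, 393, 514, 269.7 and 369 CPM and 367, 418, 394, 362 and 315 CPM. Control replicate 3 was the highest of all 20 and control replicate 1 the lowest, and the difference between the lines was 0.0049 ± 0.315 (95% interval -0.63 to 0.64), or -0.060 without control replicate 1.

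For the engine of mitotic entry, CDK1 measured 90.9, 102, 133, 127 and 113 CPM in unstimulated control and 118, 106, 97.6, 86.9 and 117 CPM in unstimulated knockdown input. In IL-13 libraries it measured 89.4, 122, 183, 103 and 112 CPM and 105, 118, 110.2, 117 and 113 CPM. The lines overlapped (log2 difference -0.11 ± 0.182 SE, 95% interval -0.48 to 0.26). PLK1 measured 280.1, 321, 529, 595 and 537 CPM and 549, 611, 359, 490.0 and 538 CPM in unstimulated control and knockdown input. With IL-13 it measured 373, 491, 585, 600.3 and 622 CPM and 623, 586, 318, 481 and 567 CPM. Control replicates 1 and 2 were low among the unstimulated libraries and knockdown replicate 3 was low in both treatments, and the difference between the lines was 0.059 ± 0.152 (95% interval -0.25 to 0.37), or -0.0065 without unstimulated control replicate 1.

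In the replication set, the helicase subunit MCM2 was among the steadiest genes outside that 1 control library. It measured 334, 510.0, 483, 536 and 495 CPM in unstimulated control and 475, 488, 487, 504 and 503 CPM in unstimulated knockdown input. Under IL-13 the values were 529, 454, 434, 501 and 515 CPM and 505, 519.8, 464, 490.0 and 446 CPM. The difference between the lines was 0.027 ± 0.131 (SE; 95% interval -0.24 to 0.29) and -0.024 without that library, and the 6 MCM genes lay between -0.094 and 0.061. PCNA measured 587, 594, 561, 529 and 598 CPM and 496, 518, 592, 555 and 558 CPM in unstimulated control and knockdown input, and 565, 677, 532, 569 and 659 CPM and 477, 586, 632, 625 and 530.4 CPM with IL-13. The ranges overlapped (log2 difference -0.077 ± 0.105, 95% interval -0.29 to 0.14).

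E2F1, CCNE1, CCNE2, CDC6 and CDT1, which act at the G1/S transition, did not pass the test. E2F1 measured 382, 227, 210.5, 246 and 215 CPM in unstimulated control and 198, 196, 235, 265 and 225 CPM in unstimulated knockdown input. After IL-13 the levels were 258, 218, 242, 215 and 259 CPM and 248, 234, 211, 233 and 180.1 CPM. Control replicate 1 was the highest by a wide margin and the rest overlapped (log2 difference -0.15 ± 0.158 SE, 95% interval -0.47 to 0.17), and without that library the difference was -0.057. CCNE2, a cyclin E that activates CDK2, measured 32.6, 48.2, 41.9, 31.7 and 32.3 CPM and 29.6, 28.3, 38.8, 26.7 and 29.6 CPM in unstimulated control and knockdown input. In IL-13 libraries it measured 33.7, 45.6, 45.0, 28.0 and 29.5 CPM and 27.1, 29.6, 44.9, 38.0 and 31.5 CPM. Its difference was -0.19 ± 0.211 (95% interval -0.61 to 0.24), and those of CCNE1, CDC6 and CDT1 were -0.17, -0.18 and -0.18.

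**Figure D2:**
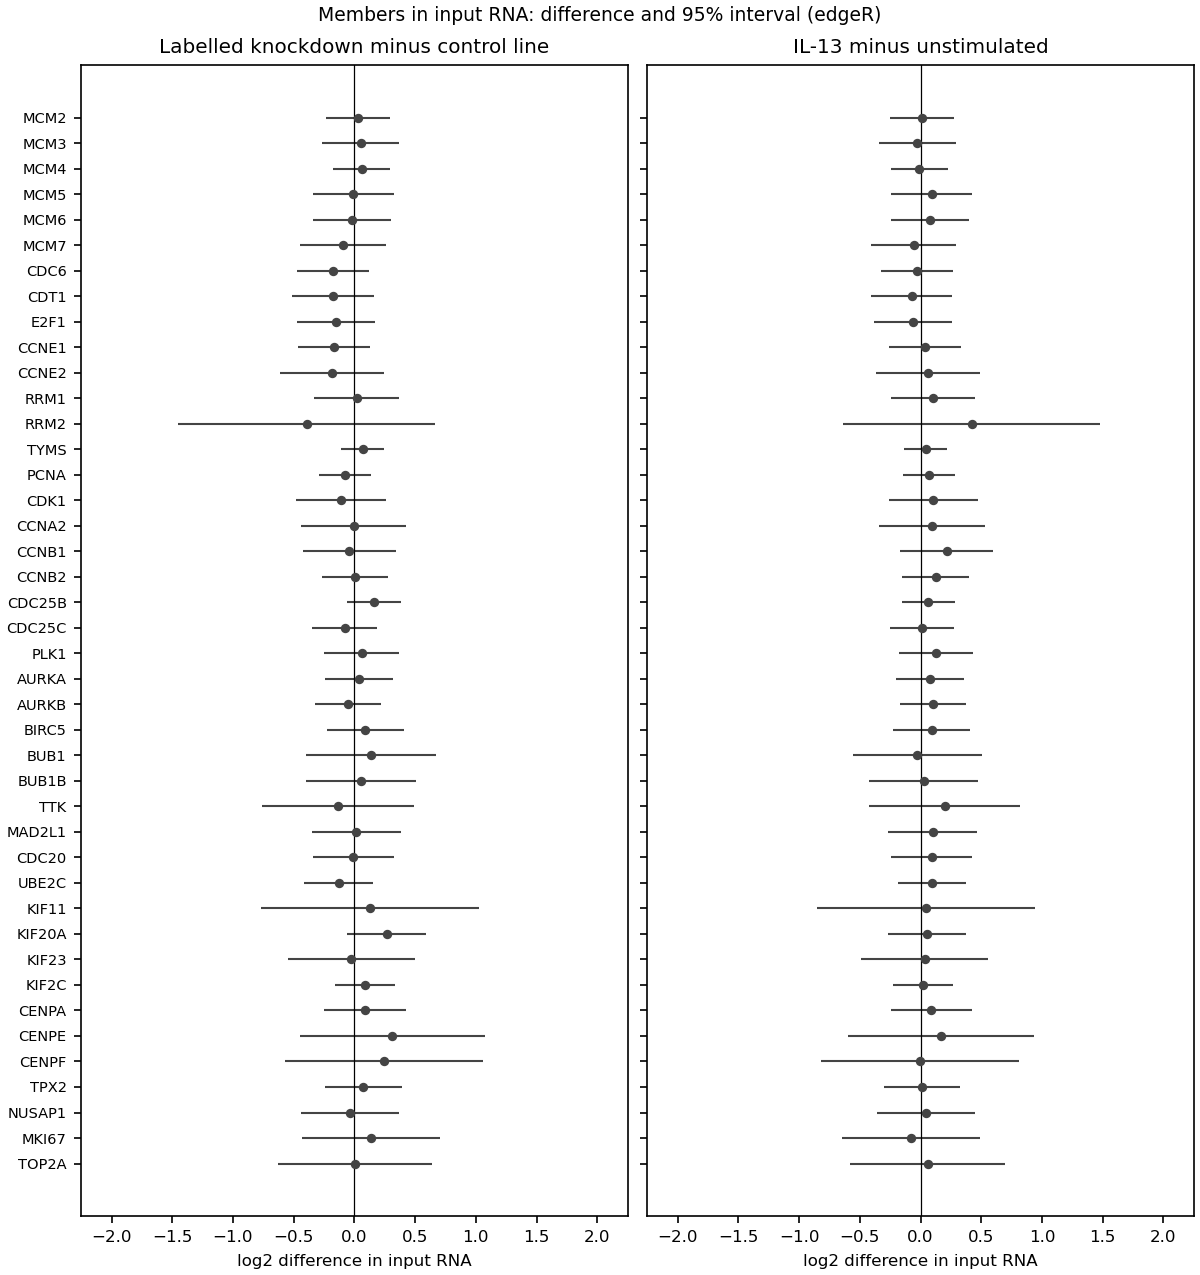
Log2 difference in input RNA (x axis, points) with its 95% interval (lines) for each of the 42 genes (y axis), between the lines averaged over treatments (left) and between IL-13 and unstimulated cells averaged over lines (right). Every interval spans 0, and the widest belong to RRM2, KIF11, CENPF and CENPE.

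The main fit shares 1 estimate of spread per gene between the fractions. The SD of log2(CPM + 1) between libraries of 1 group was 0.246 (CENPE), 0.253 (CENPF) and 0.330 (KIF11) in input. In polysome RNA it was 1.08, 1.37 and 1.34, while RRM2 varied widely in both (1.27 and 1.47). When the 20 input libraries were fitted without the polysome libraries, the SE of CENPE was 0.116 in place of 0.377. There CENPE (0.31), CENPF (0.24) and CDT1 (-0.18) had unadjusted p-values of 0.0160, 0.0406 and 0.0437 for the mean of both treatments, and edgeR adjusted p-values of 0.267, 0.396 and 0.409. In unstimulated cells alone CENPE lay at 0.57 (unadjusted p = 0.00245, edgeR adjusted p = 0.282), CENPF at 0.42 (0.0126 and 0.506) and CDC6 at -0.31 (0.0286 and 0.676). None was called.

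In polysome RNA, too, no difference between the lines passed the test. Of the 42 genes 0 were called without IL-13 (0.0299% of all genes were), 0 with IL-13 (0.0896%) and 0 for the mean of both treatments (1.38%), and the DESeq2 Wald test called none. At an unadjusted p under 0.05 in edgeR there were 2 of the 42 without IL-13 (RRM2 and CDT1; 7.42% of all genes), 0 with IL-13 (9.92%) and 3 for the mean of both treatments, CDT1, E2F1 and RRM2, all lower in the knockdown line (14.7% of all genes). The median of the 42 was 0.0022, against -0.037 for all genes.

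The gene of smallest p was CDT1, which loads the helicase. In polysome RNA it measured 228, 118, 92.7, 209.7 and 108 CPM in unstimulated control and 122, 97.7, 125, 104 and 45.9 CPM in unstimulated knockdown libraries. With IL-13 it measured 84.3, 186, 109.8, 117 and 86.7 CPM and 70.1, 84.4, 65.3, 97.7 and 133 CPM. The lines overlapped in both treatments, with the lowest value in a library of 1816848 counts. The log2 difference was -0.49 ± 0.167 (SE; 95% interval -0.83 to -0.16; edgeR adjusted p = 0.126). In input CDT1 measured 148, 139, 117, 155 and 130.4 CPM and 117, 118, 131, 138 and 124 CPM without IL-13 and 132, 106, 154, 129 and 152 CPM and 138, 124, 105, 113 and 98.2 CPM with it, in the same order of lines. E2F1 in polysome RNA measured 219.9, 117, 98.5, 242 and 170.3 CPM in unstimulated control and 115, 116, 177, 141 and 76.3 CPM in unstimulated knockdown libraries. Under IL-13 the values were 123, 229.5, 150.1, 155 and 107 CPM and 99.1, 113, 88.1, 149 and 169 CPM. The ranges overlapped (log2 difference -0.37 ± 0.159 SE, edgeR adjusted p = 0.251).

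RRM2, the small subunit of ribonucleotide reductase, had by far the widest spread of the 42 genes. In input it measured 96.2, 48.5, 118, 77.7 and 14.6 CPM in unstimulated control and 120.0, 91.4, 97.8, 59.8 and 16.2 CPM in unstimulated knockdown libraries. After IL-13 the levels were 155, 189, 90.8, 157 and 86.3 CPM and 4.98, 41.6, 32.7, 189 and 93.4 CPM. In input RNA the SD between libraries was 1.27 on the log2 scale, against 0.203 for RRM1, the large subunit of the same enzyme. In polysome RNA RRM2 measured 330.3, 247, 157, 229 and 150.2 CPM in unstimulated control and 60.6, 30.0, 107, 15.1 and 3.42 CPM in unstimulated knockdown libraries. In IL-13 libraries it measured 164, 183, 32.2, 45.6 and 11.3 CPM and 54.4, 23.8, 17.8, 87.0 and 284 CPM. The unstimulated polysome groups did not overlap (lowest control 150 CPM, highest knockdown 107 CPM), a difference of -2.34 ± 0.778 (SE; unadjusted p = 0.00470, adjusted p = 0.349 in edgeR). With IL-13 they overlapped widely. The difference of the IL-13 effect between the lines in polysome RNA was 2.41 ± 1.07 (unadjusted p = 0.0299, adjusted 1.00), and it fell to 1.41 without the IL-13 knockdown library 5, which held 655 counts of RRM2.

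No effect of IL-13 on the 42 genes passed the test in either line or fraction. Called were 0 of 42 in control input (0.0777% of all genes), 0 in knockdown input (0.0837%), 0 in control polysome (0.125%) and 0 in knockdown polysome RNA (0.0956%). Averaged over lines, 0 of 42 were called in input (0.149% of all genes) and 0 in polysome RNA (0.209%). In all 6 comparisons 0 of 42 had an unadjusted p under 0.05 in edgeR, and the DESeq2 Wald test called 0. Over all genes the shares at that level were 2.04%, 1.03%, 5.14% and 3.21% in the 4 single comparisons and 1.96% and 5.28% in the averaged ones, in the same order. In input 33 of the 42 averaged differences were above 0, 24 of them mitosis genes, with a median of 0.060 against 0.00075 for all genes. The control line had a median of 0.074, and 0.0070 without unstimulated control replicate 1, while the knockdown line had 0.023. Over fits without 1 library the control line median ranged from 0.0070 to 0.18. The fit at 0.0070 kept IL-13 control replicate 1, where 26 of the 27 mitosis genes lay below their group mean (-0.36). No fit left out both libraries. In 41 of the 42 genes the 95% interval of the averaged input effect lay within a 2-fold change in either direction. The fit took unstimulated and IL-13 libraries as unpaired.

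CCNB1, the cyclin that drives CDK1 into mitosis, had the smallest p for IL-13 in input. It measured 67.2, 139.7, 181, 223 and 200.3 CPM in unstimulated and 129, 185, 216, 202 and 265 CPM in IL-13 control libraries. In the knockdown line it measured 176, 196, 129, 147 and 187 CPM unstimulated and 190.0, 216, 129, 174 and 206 CPM with IL-13. The groups overlapped in both lines, and the averaged log2 difference was 0.22 ± 0.190 (SE; 95% interval -0.17 to 0.60; unadjusted p = 0.262 in edgeR), or 0.12 without unstimulated control replicate 1. MKI67 lay at -0.075 ± 0.281 (95% interval -0.64 to 0.49), MCM2 at 0.013 ± 0.131 (-0.25 to 0.28) and PCNA at 0.067 ± 0.105 (-0.15 to 0.28).

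In polysome RNA the gene of smallest p for IL-13 was KIF11, the motor that pushes spindle poles apart. It measured 4.07, 21.1, 22.6, 3.20 and 5.91 CPM in unstimulated and 13.3, 3.17, 13.2, 14.0 and 24.1 CPM in IL-13 control polysome libraries. In the knockdown line it measured 0, 23.2, 0, 5.25 and 0 CPM unstimulated and 26.0, 9.53, 23.0, 14.5 and 7.80 CPM with IL-13. The 3 libraries at 0 allow up to 0.748, 0.171 and 1.47 CPM (3 counts, counting error only), and 2 of them held under 5000000 counts. The averaged difference was 0.79 ± 0.465 (SE; 95% interval -0.15 to 1.73; unadjusted p = 0.0985 in edgeR). Without unstimulated knockdown library 2, the only one of its group above 6 CPM, it was 1.68, also not called (lowest edgeR adjusted p over the fits without 1 library 0.144). In input KIF11 measured 52.5, 84.5, 135, 82.5 and 66.8 CPM in unstimulated and 71.5, 113, 105, 69.9 and 68.5 CPM in IL-13 control libraries. In knockdown input it measured 93.8, 79.9, 82.1, 84.4 and 113 CPM unstimulated and 84.5, 97.8, 109, 99.5 and 82.8 CPM with IL-13, with all groups overlapping.

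Whether IL-13 acted differently in the 2 lines was tested as a difference of effects. Of the 42 genes 0 were called in input (0% of all genes) and 0 in polysome RNA (0%), with medians of -0.058 and 0.056 against 0.0072 and -0.011 for all genes. At an unadjusted p under 0.05 there were 0 in input (0.914% of all genes) and 1, RRM2, in polysome RNA (3.36% of all genes), and DESeq2 called 0 in both. In the fit of the 20 input libraries alone, CENPE had an IL-13 difference of 0.42 in the control line (unadjusted p = 0.0181) and a difference of the IL-13 effect between the lines of -0.53 (unadjusted p = 0.0340), with edgeR adjusted p-values of 1.00 for both.

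Genes around the 42 were read from lists chosen by function. For the lines in input, 0 of 28 other replication genes, 0 of 35 other mitosis genes, 0 of 32 cell cycle regulators and 0 of 20 p53 target genes were called (0.406% of all genes). In polysome RNA 2 of the 32 regulators were called (1.38% of all genes), both lower in the knockdown line: CDKN1A, the p21 inhibitor of cyclin-dependent kinases and a p53 target, by 0.60 ± 0.149 (SE; adjusted p = 0.0279 in edgeR), and CCND3, another D cyclin, by 0.46 ± 0.113 (adjusted p = 0.0267). Both calls were lost in the fit on the 20 polysome libraries alone (edgeR adjusted p = 0.288 and 0.192), in the 37 libraries of at least 5000000 counts (0.0750 and 0.182), and each in 7 of 20 fits without 1 library; that of CCND3 was also lost with no filter beyond 1 count (0.0943). CDKN1A in input averaged 486 ± 67.4 CPM in unstimulated control and 338 ± 36.2 CPM in unstimulated knockdown libraries (SD, n = 5), and its input difference was -0.50 ± 0.148 (adjusted p = 0.191). The unstimulated input groups did not overlap (lowest control 383 CPM, highest knockdown 378 CPM). With IL-13 they overlapped narrowly (lowest control 417 CPM, highest knockdown 418 CPM).

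Of the other regulators, CDKN1B, the p27 inhibitor, differed between the lines in input by -0.16 ± 0.157 (SE), MYC by -0.25 ± 0.295, CCND1 by 0.21 ± 0.462 and FOXM1, the transcription factor of the mitosis genes, by 0.045 ± 0.0978, none called. Without unstimulated control input library 1, MYC turned to 0.17, CCND1 lay at 0.59 and CDKN1B at -0.25, again with none called. For IL-13 0 of the 28, 35, 32 and 20 genes were called in either fraction. The largest IL-13 difference among the named regulators in input was that of CCND1, -1.14 ± 0.467 (edgeR adjusted p = 1.000), whose unstimulated libraries ranged from 6.80 to 56.4 CPM; without the library at 56.4 CPM it was -0.76. FOXM1 was steady, with group means between 474 and 510 CPM in input.

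Within groups the mitosis genes moved together from library to library. After group means were removed, the median correlation between pairs of mitosis genes over the 20 input libraries was 0.598 (351 pairs, 94.0% above 0), against 0.114 for pairs of replication genes (105 pairs) and 0.0101 for pairs of the 8920 genes of at least 10 CPM. The replication genes also varied less between input libraries. Their median SD was 0.191, against 0.314 for mitosis genes and 0.257 for the 8920 genes. The part of this spread in the correlations was not tested. Values of 1 library share their depth and scaling, so these correlations are a description. Without unstimulated control library 1 they were 0.564 and 0.183. Averaged over the 27 genes, the mitosis level deviated most in unstimulated control libraries 1 (-0.47) and 3 (0.36) and in IL-13 control library 1 (-0.36), where 26 of the 27 genes were below their group mean. In unstimulated knockdown library 3, 26 of 27 were below (-0.24), and in unstimulated knockdown library 5 all 27 were above (0.19). The mean deviations of the replication and mitosis sets had a correlation of -0.233 over the same libraries.

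**Figure D3:**
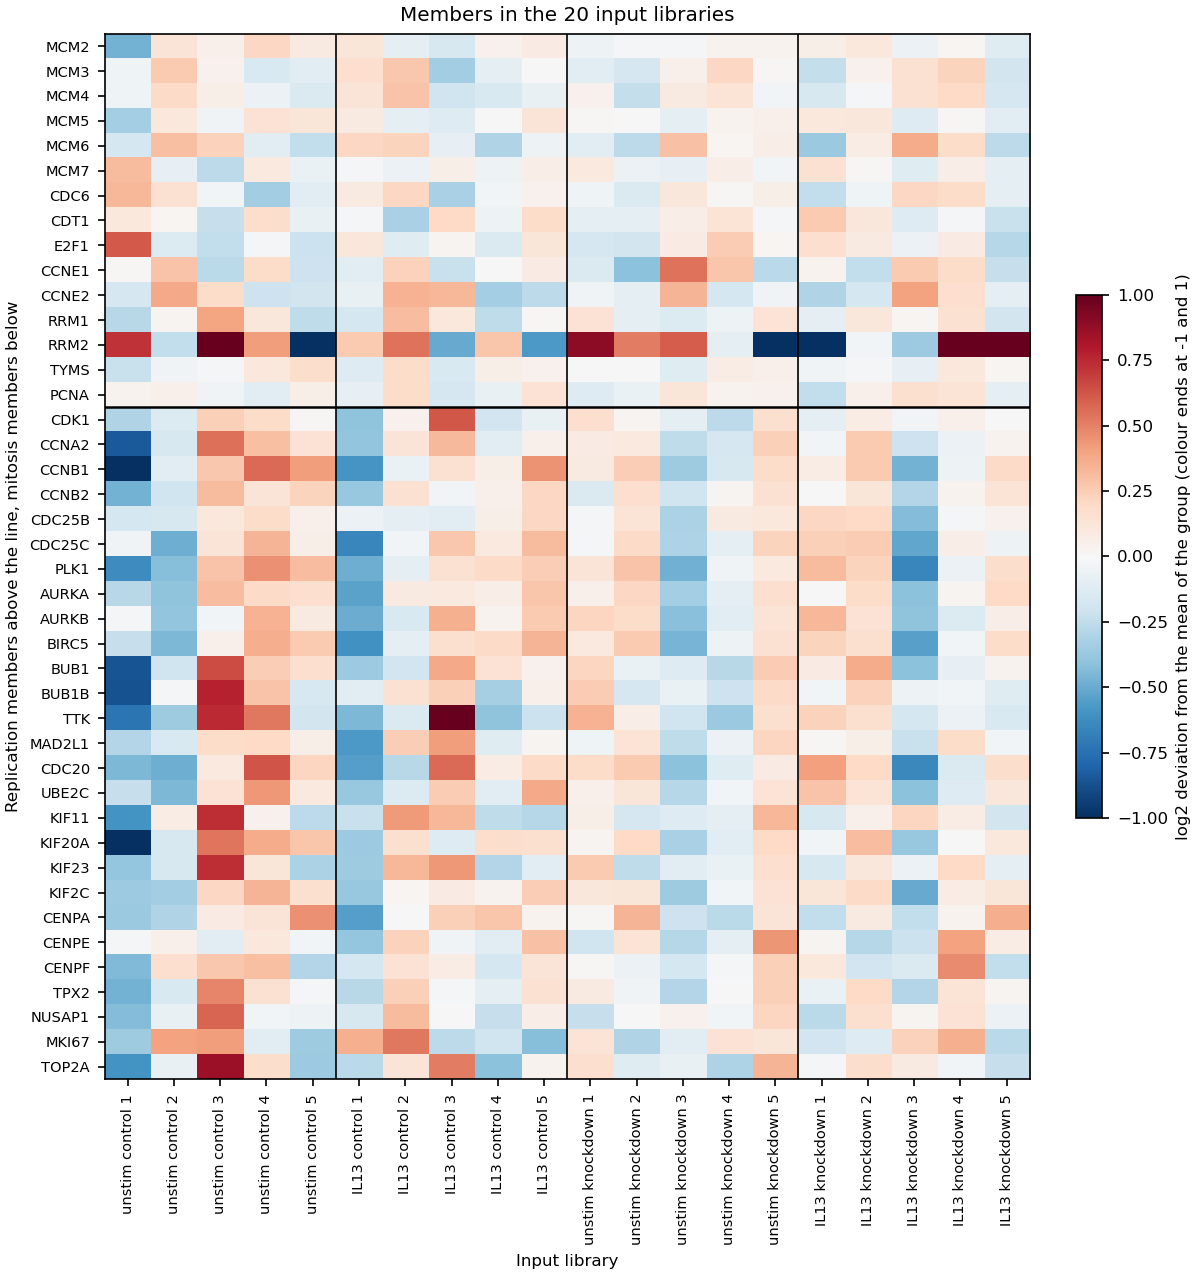
Deviation of log2(CPM + 1) from the mean of the group for each of the 42 genes (rows) in each of the 20 input libraries (columns), red above and blue below the group mean, with colours ending at 1 and -1. Mitosis genes below the line change colour together between libraries, for example blue in unstimulated control 1 and mostly red in unstimulated control 3, while RRM2 varies on its own.

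The genes that followed the other genes of their set most closely in input were CCNA2 (correlation with the mean of the others 0.950), TPX2 (0.895), KIF2C (0.885) and BUB1 (0.880). CCNA2 pairs with CDK1 and CDK2, and TPX2 activates Aurora A on the spindle. BUB1, MAD2L1 (0.866), CCNB2 (0.852) and PLK1 (0.851) are those whose promoters are printed above; they were picked among close followers that hold a CHR. The windows of CCNA2, KIF2C, CCNB1 (0.861) and KIF20A (0.851) hold none, and some genes with a CHR followed the others less closely, such as CENPF (0.583), NUSAP1 (0.572), KIF11 (0.567) and MKI67 (-0.086). MKI67 and CENPE (0.378) had the lowest values among the mitosis genes. Among replication genes MCM4 (0.788) and MCM3 (0.703) were closest to the mean of the others and CDT1 (-0.333) farthest. In polysome RNA the 2 sets had similar medians, 0.419 for mitosis and 0.400 for replication pairs (0.295 for replication in the 17 libraries of at least 5000000 counts).

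Set against input, the 42 mRNAs were represented very unequally in polysome RNA. In the 4 combinations of line and treatment each gene kept its direction except RRM2, CDT1, CCNB1 and PLK1, none of them called in any. The difference compares CPM in each fraction and is relative to all other mRNAs; it is not the share of molecules on ribosomes. In unstimulated control cells 32 of the 42 were called (40.2% of all genes), 10 higher and 22 lower. With IL-13 in the control line 31 were called (39.3%), in the unstimulated knockdown line 31 (38.5%) and in the IL-13 knockdown line 31 (39.3%), each with 9 higher and 22 lower. Without unstimulated control input replicate 1 the first of these counts was 29. The 4 comparisons share no library, but they come from 1 fit with 1 estimate of spread per gene. In all 4 the same 9 genes were called higher and the same 22 lower, 10 were called in none and CDC20 in some. The share of all genes called in all 4 was not determined, so these joint counts are only a description. Over all genes 17.4% were higher and 22.8% lower in the first comparison, 16.7% and 22.6% in the second, 16.4% and 22% in the third, and 16% and 23.3% in the last. For the mean of the 4, 35 of the 42 were called (65.1% of all genes), 11 higher (26.2% of all genes) and 24 lower (38.9%), and the median was -0.69 against -0.24 for all genes.

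**Figure D4:**
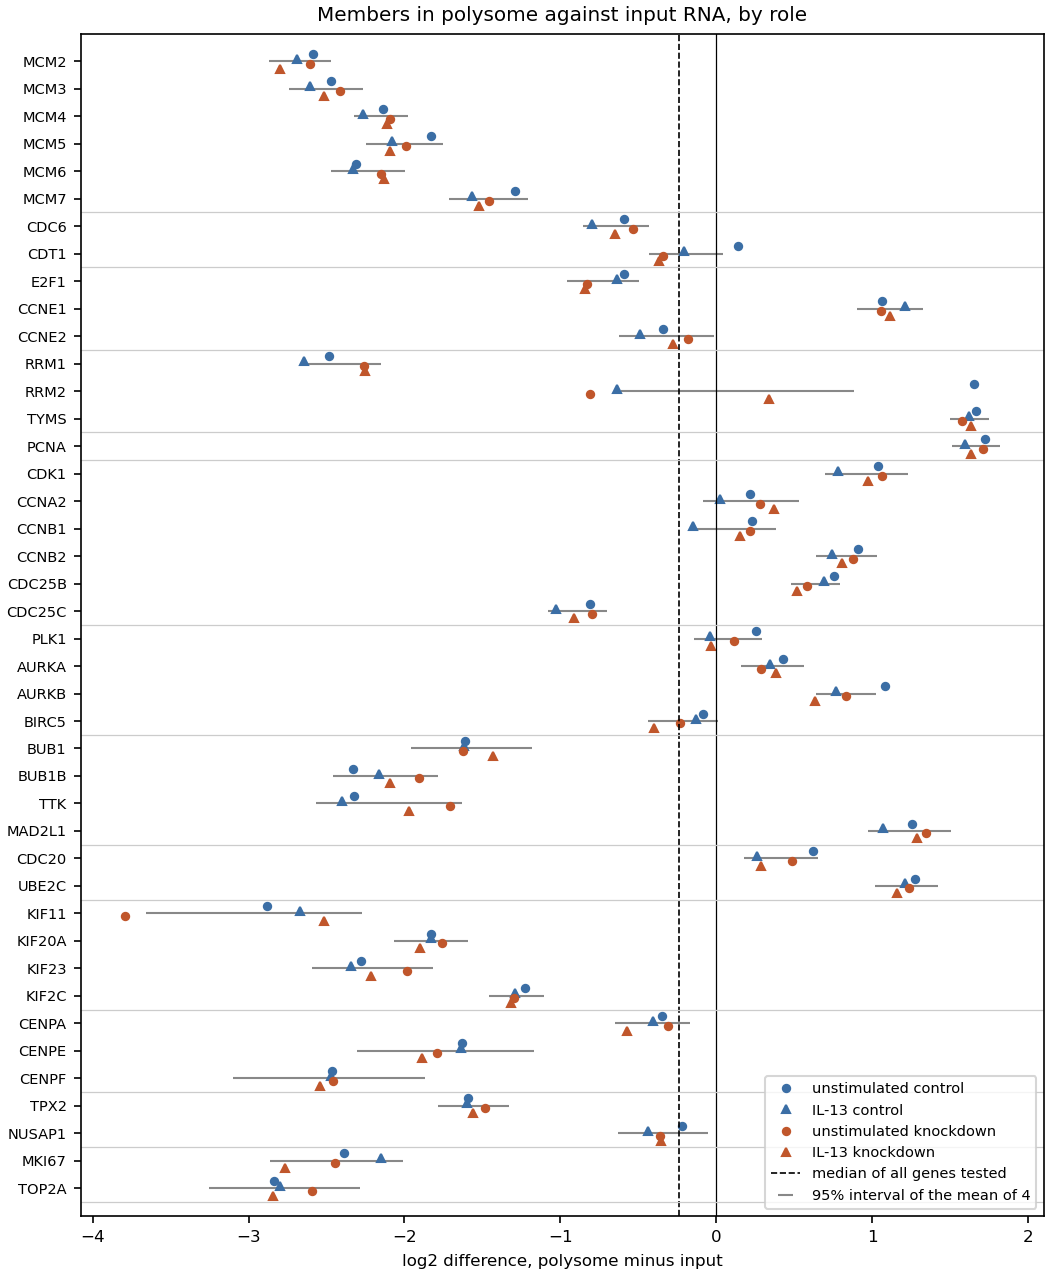
Log2 difference of polysome minus input RNA (x axis) for the 42 genes grouped by role (y axis), with 1 mark per line and treatment, the 95% interval of the mean of the 4 groups (grey line) and the median of all genes tested (dashed). All 6 MCM genes and all 4 kinesins lie below -1, while PCNA and TYMS lie between 1.58 and 1.72 in all 4 groups.

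Among the replication genes the helicase was uniformly lower in polysome RNA. All 6 MCM genes were called lower, from -2.67 (MCM2) to -1.46 (MCM7). MCM2 had a lowest, median and highest value of 334, 493 and 536 CPM over the 20 input and 41.1, 75.9 and 111 CPM over the 20 polysome libraries. Its polysome values were 65.3, 74.3, 71.7, 111 and 70.6 CPM in unstimulated control, 43.6, 103, 78.0, 85.2 and 68.1 in IL-13 control, 99.3, 87.7, 95.2, 77.5 and 41.1 in unstimulated knockdown and 68.0, 62.9, 53.7, 86.0 and 78.9 in IL-13 knockdown libraries. Every polysome library lay below every input library, 6.36-fold lower in the fit (-2.67 ± 0.0986 SE, edgeR adjusted p = 1.96e-23). The other subunits lay at -2.50 (MCM3), -2.15 (MCM4) and -2.23 (MCM6), and in MCM3 to MCM7 the fractions did not overlap either.

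The clamp and the enzymes of nucleotide supply split. PCNA was 3.17-fold higher in polysome RNA (1.66 ± 0.0764 SE, edgeR adjusted p = 8.52e-21). Its polysome values were 2041, 2124, 1870.4, 1982 and 1436 CPM in unstimulated control, 1368, 1719.8, 1708, 2203 and 2067 in IL-13 control, 1711, 2294, 1564, 2138 and 1164 in unstimulated knockdown and 1334, 2182, 1649, 1946 and 1748 in IL-13 knockdown libraries, all above the highest input value of 677 CPM. TYMS rose by 1.62 ± 0.0633 (SE; 3.08-fold), from 253, 319 and 357 CPM (lowest, median and highest) in input to 678, 963 and 1160.0 CPM. RRM1 went the other way, by -2.41 ± 0.128, from 182, 229 and 289.5 to 18.3, 44.1 and 65.2 CPM. RRM2 was not called at 0.14 ± 0.370 (95% interval -0.61 to 0.89), the mean of 4 unlike values. It lay at 1.65 ± 0.756 in unstimulated control cells (95% interval 0.12 to 3.18; edgeR adjusted p = 0.0804), where every polysome library was above every input library. In the other groups the fractions overlapped, at -0.64 in IL-13 control, -0.81 in unstimulated knockdown and 0.34 in IL-13 knockdown cells. Leaving out single libraries moved the mean between -0.12 (without IL-13 knockdown polysome library 5) and 0.32.

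The G1/S regulators also split. CCNE1 was higher by 1.11 ± 0.104 (SE), with every polysome library above every input library, and E2F1 was lower by 0.73 ± 0.113. CCNE2 in polysome RNA measured 48.3, 36.5, 37.3, 14.2 and 11.0 CPM in unstimulated control, 24.5, 14.1, 19.6, 37.8 and 33.6 in IL-13 control, 19.2, 38.0, 22.0, 18.7 and 38.1 in unstimulated knockdown and 36.6, 15.8, 31.7, 32.8 and 23.8 in IL-13 knockdown libraries. It overlapped with input and lay at -0.32 ± 0.150 (edgeR adjusted p = 0.0582), a value past the threshold in 9 of 40 fits without 1 library. Of the licensing factors CDC6 was lower by 0.65 ± 0.104, and CDT1 lay at -0.19 ± 0.117 (adjusted p = 0.143; 0.0439 without IL-13 control polysome library 2).

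For mitotic entry, CDK1, CCNB2 and CDC25B, a phosphatase that activates CDK1, were higher in polysome RNA, by 0.96 ± 0.130, 0.83 ± 0.0961 and 0.64 ± 0.0772 (SE). CDK1 polysome values were 302, 356, 285, 114 and 99.4 CPM in unstimulated control, 165, 128, 188, 273 and 291 in IL-13 control, 170.3, 329.8, 169, 213 and 215 in unstimulated knockdown and 237, 257, 225, 243 and 143 in IL-13 knockdown libraries. The related phosphatase CDC25C was lower, by 0.89 ± 0.0937. CCNB1 and CCNA2 were not called. CCNB1 polysome values were 99.5, 339.8, 219, 169 and 123 CPM in unstimulated control, 164, 149.7, 163, 201 and 221 in IL-13 control, 189, 247, 147, 223 and 164 in unstimulated knockdown and 152, 270.4, 133, 186 and 276 in IL-13 knockdown libraries. The differences of CCNB1 and CCNA2 were 0.11 (95% interval -0.16 to 0.38) and 0.22 (-0.087 to 0.53), and CCNA2 was called in the 37 libraries of at least 5000000 counts (0.40, edgeR adjusted p = 0.0306).

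The Aurora kinases were higher in polysome RNA and PLK1 did not pass the test. AURKB and AURKA lay above input by 0.83 ± 0.0951 and 0.36 ± 0.0987 (SE). PLK1 measured 420.1, 633, 547, 628 and 471 CPM in unstimulated control, 356, 548, 605, 579 and 514 in IL-13 control, 531, 622, 623, 681 and 291 in unstimulated knockdown and 471, 631, 415, 539 and 459 in IL-13 knockdown polysome libraries, overlapping with input. It lay at 0.073 ± 0.107 (adjusted p = 0.563), but was called without unstimulated knockdown library 5 (0.23, edgeR adjusted p = 0.0434), whose 291 CPM was the lowest. BIRC5, or survivin, the partner of AURKB in the chromosomal passenger complex, lay at -0.21 ± 0.111 (adjusted p = 0.0904; 0.0464 without IL-13 control input library 1). Both partners of the anaphase-promoting complex were higher, UBE2C by 1.22 and CDC20 by 0.41 ± 0.116.

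The spindle checkpoint genes went in opposite directions. MAD2L1 was 2.36-fold higher (1.24 ± 0.131 SE), from 20.3, 31.0 and 41.3 CPM (lowest, median and highest) in input to 22.0, 72.2 and 120.2 CPM. BUB1B, TTK and BUB1, the kinases and pseudokinase of the same checkpoint, were lower 4.35-fold, 4.29-fold and 2.97-fold. BUB1B did not overlap between fractions, with input values from 35.2 CPM and polysome values up to 27.4 CPM.

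Motors, centromere and chromosome proteins were among the lowest. All 4 kinesins were called lower: KIF11 by 2.96 ± 0.343, KIF23 by 2.21 ± 0.192, KIF20A by 1.83 ± 0.117 and KIF2C, which takes microtubules apart, by 1.28 ± 0.0879 (SE). KIF20A polysome values were 65.6, 153, 166, 98.6 and 106 CPM in unstimulated control, 92.5, 94.2, 155, 127 and 149 in IL-13 control, 151, 198, 139, 157 and 103 in unstimulated knockdown and 159, 165, 132, 132 and 111 in IL-13 knockdown libraries. TOP2A measured 22.3, 110.1, 71.2, 23.4 and 21.1 CPM in unstimulated control, 61.7, 17.3, 57.3, 39.4 and 90.3 in IL-13 control, 17.2, 71.0, 30.6, 44.8 and 136 in unstimulated knockdown and 74.2, 31.9, 91.5, 42.3 and 15.6 in IL-13 knockdown polysome libraries, lower by 2.77 ± 0.239. MKI67 measured 15.3, 89.1, 67.0, 22.3 and 42.4 CPM in unstimulated control, 86.7, 30.2, 49.8, 26.1 and 73.6 in IL-13 control, 19.7, 63.2, 24.7, 49.0 and 97.8 in unstimulated knockdown and 51.9, 34.0, 66.1, 22.8 and 12.1 in IL-13 knockdown polysome libraries, lower by 2.44 ± 0.210. For TOP2A and MKI67 every polysome library lay below every input library. CENPF, CENPE and CENPA, the centromeric histone, were lower by 2.48 ± 0.306, 1.74 ± 0.281 and 0.41 ± 0.118, and TPX2 by 1.56 ± 0.113. NUSAP1, a microtubule-binding protein of the spindle, was called lower (-0.34 ± 0.141, edgeR adjusted p = 0.0324), a call lost with DESeq2 size factors (0.0732), by the DESeq2 Wald test (0.0693), with an offset for transcript length (0.202) and in the 37 deeper libraries (0.229). It was also lost without IL-13 control polysome library 2 (0.0502), unstimulated control input library 3 (0.0603) or unstimulated knockdown polysome library 5 (0.200).

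Counted over all 40 libraries, 4 of the 42 genes (CCNB2, CCNE1, PCNA and TYMS) had every polysome library above every input library, against 4.48% of all genes. Another 15 had every polysome library below every input library, against 7.15% of all genes: the 6 MCM genes, RRM1, BUB1B, CENPF, KIF11, KIF23, KIF2C, MKI67, TOP2A and TPX2. In the unstimulated knockdown line the median of the 42 was -0.80, and -0.49 without the polysome library of 1816848 counts (replicate 5), while 30 or 31 genes were called in the fits without 1 library.

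The polysome differences of the 42 genes were ordered with transcript length. Length was taken as the deposited estimated count per TPM in input libraries, relative to the median gene. Across the 42 genes it correlated with the polysome difference at r = -0.69 (Spearman's rho -0.73), against r = -0.21 (rho -0.27) over 16733 genes. Genes are not independent replicates and share the libraries, so this is a description. Short mRNAs such as UBE2C (relative length 0.249), AURKB (0.421) and PCNA (0.462) were higher in polysome RNA, and long ones such as MKI67 (4.91), CENPF (4.24), TOP2A (2.31) and KIF11 (2.03) were lower. MAD2L1 (2.12) was long and higher.

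**Figure D5:**
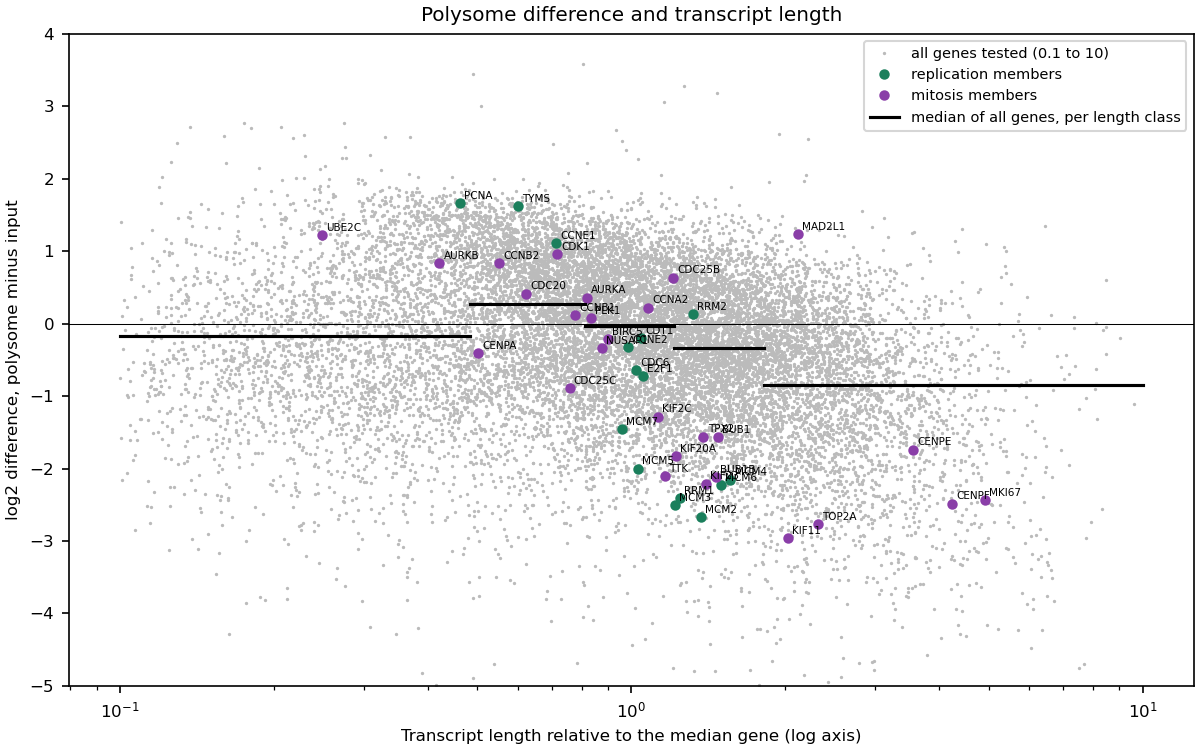
Log2 difference of polysome minus input RNA (y axis) against transcript length relative to the median gene (x axis, log scale) for the genes tested that lie within the axes (grey), the 15 replication genes (green) and the 27 mitosis genes (purple), with the median of all genes in each of 5 length classes (black). Members of the 2 longest classes lie below the black line except MAD2L1 and RRM2, and the 3 members of the shortest class lie above it.

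Genes of like length were then set side by side. When all genes were split by length into 5 classes of equal size, the 3 members of class 1, the shortest, (AURKB, PCNA and UBE2C) lay above the upper quartile of all genes there. Of the 11 members of class 4, 10 lay below its lower quartile of -1.02 (BUB1, BUB1B, KIF20A, KIF23, MCM2, MCM3, MCM4, MCM6, RRM1 and TPX2), with a median of -2.15 against -0.33 for the 3346 genes of that class. Of the 6 in class 5, 5 lay below the lower quartile of -1.68 and MAD2L1 lay above the upper. In class 3, 4 of 14 lay below the lower quartile, among them MCM5 and MCM7. The SD of a member between libraries of 1 group correlated with its length at r = 0.66 in polysome and 0.084 in input RNA.

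No shift of these polysome differences with the hairpin or with IL-13 passed the test. For the shift of the knockdown effect from input to polysome RNA 0 of the 42 genes were called (0% of all genes), and for the shift of the IL-13 effect 0 of 42 (0%), each with 0 at an unadjusted p under 0.05 in edgeR (1.91% and 1.64% of all genes) and 0 by DESeq2. The medians were -0.029 (all genes -0.031) and -0.10 (all genes -0.019), and the median SE was 0.233. For IL-13 36 of the 42 were below 0, with AURKB the smallest p (-0.26 ± 0.189 SE, unadjusted p = 0.183). For the lines the 95% interval lay within a 2-fold change in either direction in 35 of 42 genes, and for IL-13 in 36.

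The other cell cycle lists also held genes of both directions; of all genes 26.2% were called higher and 38.9% lower, with a median of -0.24. Of 35 other mitosis genes 24 were called lower and 9 higher in polysome RNA, with a median of -1.54; the lowest were KIF15 (-3.12), a spindle kinesin, INCENP (-2.62), KNL1 (-2.36) and ASPM (-2.29). Of 28 other replication genes 15 were called higher and 10 lower, with a median of 0.56, and the large polymerase subunits POLA1 (-3.70) and POLE (-2.58) were among the lowest, with MCM10 (-2.16) and LIG1 (-2.11). Of 32 regulators 17 were called higher, among them CDK2 (1.76) and CCND3 (1.09), and 12 lower, among them RBL1 (-2.26) and RB1 (-1.40). Of 20 p53 targets 12 were called higher and 3 lower, and FOXM1 was lower by 0.61 ± 0.0694 (SE).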

How the data were processed

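The submitters' processing notes name Trimmomatic, Salmon, MultiQC and DESeq2, with no role or order; versions, genome build and annotation are not given in the sources used here. The deposited tables hold estimated counts per gene, not normalized, and TPM per gene (transcripts per 1000000, which the authors scaled for transcript length), for poly(A)-selected, stranded, paired-end libraries. Symbols were matched for 62246 of 62263 identifiers. Whether the counting used strand is not stated, so TYMS and KIF23, which have antisense neighbours, are uncertain.

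Estimated counts were rounded; the planned design had assumed whole counts. Genes were filtered with filterByExpr, which kept 16735 genes and at least 99.9% of counts, scaled by TMM and fitted in edgeR 4.0.16 (quasi-likelihood, R 4.3.3) with 1 mean per group over 40 libraries (32 residual degrees of freedom). Two-sided p-values were adjusted across the genes tested by the Benjamini-Hochberg method; 95% intervals are from the same fit. Alternatives were DESeq2 1.42.0 (size factors and Wald test), no filter, a length offset, replicate blocks, other pseudocounts, TPM, libraries of at least 5000000 counts and leaving out libraries; those for the correlations and for single input genes without unstimulated control library 1 were chosen after seeing the data. The analysis was tested on simulated data with changes between the lines in input or between the fractions. The simulated libraries were independent, with no shared culture effect and no IL-13 change, so this test does not cover those. Depth per library sets the precision, and low counts in the shallow polysome libraries are the least precise.

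Members and lists were chosen with earlier results of these data known. Values in every library are given for 10 genes fixed by role and for the gene of smallest p in 5 averaged comparisons; other genes named outside the 42 are fixed regulators or up to 4 called genes per list. The labels do not say that libraries of a group came from separate cultures, so p-values measure the spread between these samples, which may be technical. The 80 pairs of libraries within groups all differed beyond sampling noise (lowest chi-square per degree of freedom 15.3).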

Additional observations from a re-analysis of the deposited data

Results flagged for a closer look

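In 10 of 120 sets of 5 libraries, 1 library lay far from the other 4 of its group (Dixon's test, critical value 0.71); chance gives about 6. In unstimulated control input library 1, E2F1 was the highest of its group at 382 CPM (others 210.5 to 246 CPM) and MCM2 the lowest at 334 CPM (others 483 to 536 CPM). CCNE2 was highest in unstimulated knockdown input library 3, at 38.8 CPM (others 26.7 to 29.6 CPM).

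In polysome RNA, MCM2 measured 111 CPM in unstimulated control library 4 (others 65.3 to 74.3 CPM), CDK1 329.8 CPM in unstimulated knockdown library 2 (others 169 to 215 CPM) and KIF11 23.2 CPM in the same library (others 0 to 5.25 CPM). IL-13 knockdown library 5, with 2302952 counts in all, held RRM2 at 284 CPM (655 counts; others 17.8 to 87.0 CPM) and CDK1 at 143 CPM (331 counts; others 225 to 257 CPM).

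Of the mean levels, as log2(CPM + 1), the replication genes lay at 7.30 in unstimulated control input library 5 (others 7.53 to 7.59) and the mitosis genes at 7.06 in IL-13 knockdown input library 3 (others 7.35 to 7.47).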

How the results depend on the processing

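The counts of genes called stayed within 1.5 times of the reported count under all 528 alternatives to the 21 comparisons. Of single genes 2250 values kept direction and call, 3 turned sign, 16 gained a call and 7 lost one, and the cause of the changes was not tested. RRM2 in polysome against input RNA turned from 0.14 to -0.070 with culture (line, treatment and number) as a replicate block and ranged from -0.12 to 0.32 over fits without 1 library. CCNE2 was called in the same block fit (-0.41, edgeR adjusted p = 0.0253) and without both libraries 1 of the unstimulated control (-0.40, 0.0197). PLK1 was called in the libraries of at least 5000000 counts (0.25, 0.0368). Same-numbered input and polysome libraries did not deviate together throughout (r from -0.463 to 0.573, median 0.0168, 9 of 20 pairs over 0.1, 3 of 20 best with their own number), though unstimulated control 1 stood apart in both fractions. The labels do not say that a number marks a shared culture, so the block is only an alternative, and the replicate number as a block changed no count of the 42 genes. A block of line and number across treatments was not fitted. Mitosis deviations in unstimulated and IL-13 input were alike in control 1 (-0.47 and -0.36) and knockdown 3 (-0.24 and -0.27). They also shared a sign in control 3 (0.36 and 0.23), control 5 and knockdown 1, 2 and 5. Their signs differed in control 2, control 4 (0.26 and -0.059) and knockdown 4. The main IL-13 tests took these libraries as unpaired, and what pairing them would change was not tested. Mean levels from TPM are in another unit and so moved. The median polysome difference of the 42 genes in the unstimulated knockdown line moved from -0.80 to -0.53 in the libraries of at least 5000000 counts. Depth limits low genes in polysome RNA, such as KIF11, most.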
